A study of Mus musculus with 4 samples.

Results

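The ZFP36 and BTG/TOB genes are 2 families of mRNA-decay factors that hold T cells in a resting state. They were examined here in nascent RNA of thymocytes at the double positive (DP) stage, which carry both CD4 and CD8, with and without Tox4. The members were the rows of the deposited fragment count table named Zfp36, Zfp36l1, Zfp36l2, Btg1, Btg2, Tob1 and Tob2, which are 7 of 24984 genes. In TTchem-seq, cells take up 4-thiouridine briefly and the newly made RNA that holds it is pulled out and sequenced, so the signal over a gene is meant to follow its transcriptional output more than the amount of stable mRNA. The labels of these samples describe oligo-dT capture of polyadenylated RNA instead, and how far the values are nascent RNA was not tested, so output below stands for the signal as labelled. There were 2 wild-type (WT) libraries from mice carrying floxed Tox4 alleles (labelled Tox4;F/F) and 2 conditional knockout (cKO) libraries from mice that carried the same floxed alleles together with Lck-Cre (labelled Tox4;F/F;Lck+). Both groups thus shared the floxed alleles and differed by the Cre transgene, which the proximal Lck promoter drives in T cell precursors. The mice were young adults of C57BL/6 background. The labels give no animal for each library, so the p-values measure only the spread between these libraries.

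ZFP36 (tristetraprolin), ZFP36L1 and ZFP36L2 are zinc finger proteins that bind AU-rich elements in the 3′ untranslated region of mRNAs and recruit the CCR4-NOT deadenylase, which shortens the poly(A) tail and starts decay. BTG1, BTG2, TOB1 and TOB2 bind the deadenylase subunits of CCR4-NOT through a shared domain and likewise promote deadenylation. Loss of Zfp36l1 and Zfp36l2 in thymocytes is known to disturb the pause in the cell cycle at beta-selection and the control of Notch1, and Btg1 and Btg2 are known to keep naive T cells quiescent. Zfp36 and Btg2 are also early response genes, transcribed within minutes of a stimulus.

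The libraries held between 38429786 and 48690591 fragments, and the 11625 genes averaging 1 CPM or more (counts scaled to a common library total) were tested. For Tox4 itself the WT libraries had 74.0 and 70.3 CPM and the cKO libraries 59.3 and 57.2 CPM, a log2 difference of -0.31 ± 0.0998 (SE, adjusted p-value by DESeq2 0.0453), so it went the way of the labels. It was -0.34 to -0.28 with 1 library left out, with no adjusted p-value by DESeq2 under 0.196, and edgeR gave an adjusted p-value of 0.122. The count spans the whole locus, not the floxed exons alone. The X-inactivation transcript Xist had 172 CPM in the first WT library and 2.36 CPM in the second, against 1.09 and 0 CPM in cKO. Xist marks female cells, so sex appeared unbalanced between the genotypes, although the methods state gender-matched littermates. The part of sex in the differences was not tested. Because the first WT library stood apart, the members are also given without WT replicate 1. Among markers of cell types, the summed CPM of 10 DP genes lay between 6411 and 7259 in WT and between 6686 and 7053 in cKO. That of 7 genes of mature single positive cells lay between 515 and 525 in WT and between 451 and 518 in cKO. The methods give a purification of thymic DP cells with CD4 beads, which also retain CD4 single positive cells, but do not say whether the cells of these libraries were purified that way. B cell, myeloid, erythroid and thymic epithelial lists each summed to at most 12.3 CPM in any library.

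All 7 members passed the filter on low values, and their output per length differed widely, with Btg2 and Btg1 near the top of the tested genes and Tob1 far below. In CPM per kb of counted length, Btg2 had 93.7 ± 11.2, Btg1 60.4 ± 0.586, Zfp36l2 43.9 ± 7.36 and Zfp36 43.2 ± 1.87 in WT (SD, n = 2). Zfp36l1 had 25.1 ± 2.09, Tob2 10.8 ± 0.841 and Tob1 5.33 ± 0.631 CPM per kb. In this order the genes ranked 51, 80, 117, 120, 224, 612 and 1557 among the 11625 tested genes. The level of every gene lay above that of the next in both WT libraries, with the exception of Zfp36l2 and Zfp36, whose WT libraries overlapped. In cKO, Btg2 had 75.6 ± 3.64, Btg1 53.9 ± 2.69, Zfp36l2 49.2 ± 3.72 and Zfp36 34.5 ± 3.22 CPM per kb (SD, n = 2). The order of the 7 genes was the same, and no neighbours in that order overlapped, although the lowest value of Btg1, 52.0, was close to the highest of Zfp36l2, 51.8.

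**Figure D1:**
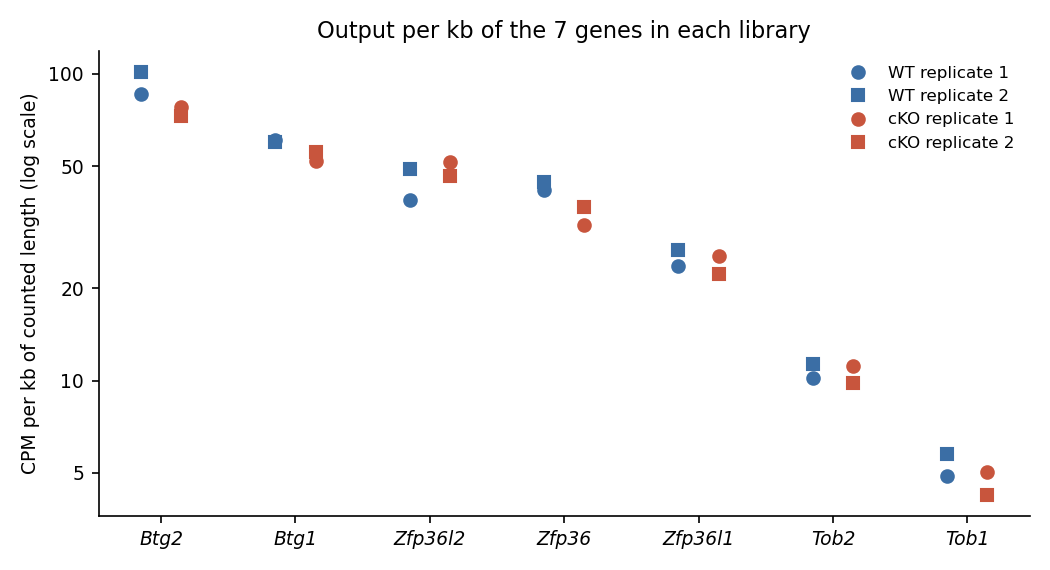
CPM per kb of counted length (log axis) of the 7 genes in each of the 4 libraries, in the order of their WT mean, with WT in blue and cKO in red. Btg2 was highest, near 93.7 CPM per kb in WT, and Tob1 lowest at 5.33, and Zfp36l2 and Zfp36 overlapped in WT only.

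All members are compact genes of 2 exons in the RefSeq annotation of GRCm38, and the counted interval ran from the start to the end of the gene, intron included. The intron made up 12.1% of Zfp36l2, 13.8% of Btg1, 27.8% of Zfp36, 28.2% of Btg2, 43.2% of Zfp36l1, 43.4% of Tob1 and 60.3% of Tob2. The coding sequence of Tob1 and Tob2 lies in 1 exon, and that of the other members is split over both.

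Output of 2 of the 7 members, Zfp36 and Btg2, fell in cKO, with changes of -20.4% and -19.5%, and no member rose. Genes were called at a DESeq2 adjusted p-value under 0.05 and a fold change of at least 1.2, and at these criteria 1.57% of tested genes were called lower, 2.14% higher and 3.71% either way. The edgeR quasi-likelihood test called no member, beside 0.146% of tested genes lower and 0.508% higher. Of the other 5 members, 4 had a log2 fold change below 0 and Zfp36l2 one above 0. The median over the 7 members was -0.17, beside 0.00 over all genes tested, and it was -0.069 without WT replicate 2 and -0.088 without cKO replicate 2. Both cKO libraries lay below both WT libraries for 3 members, Zfp36, Btg1 and Btg2, a pattern that 24.0% of all tested genes showed, and for no member did both lie above, as for 24.9% of genes. In bulk libraries, fewer cells of a type that transcribes a gene and less transcription per cell cannot be told apart.

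**Figure D2:**
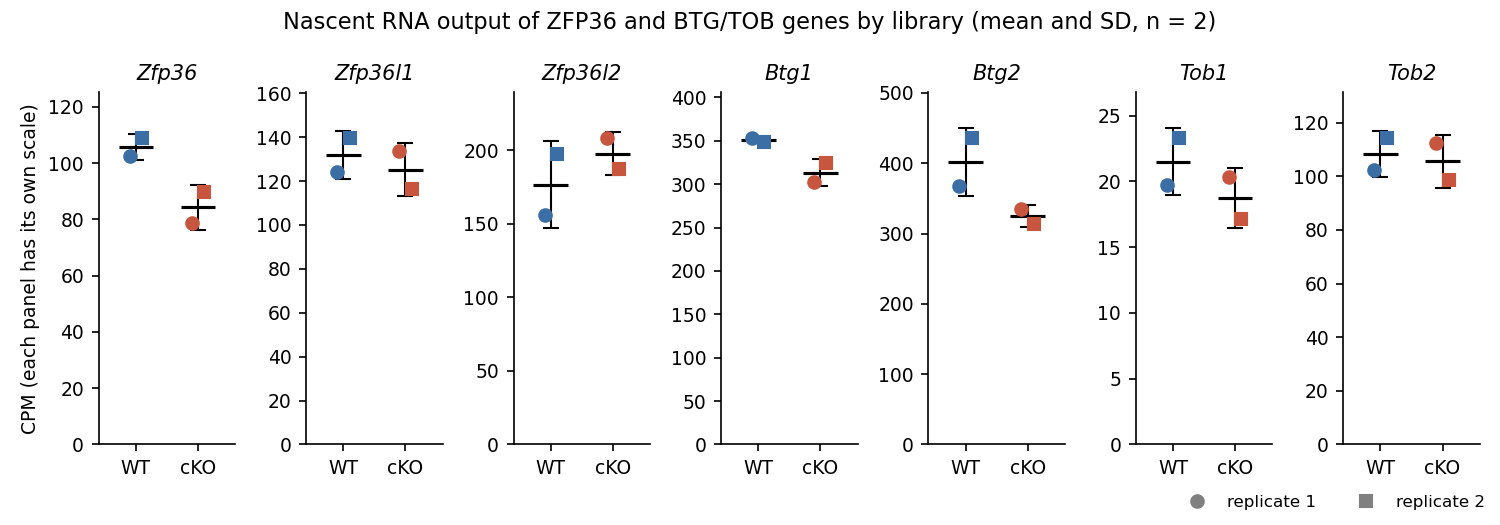
CPM of each member in the 4 libraries (circles replicate 1, squares replicate 2), with the mean and SD of each genotype (n = 2) and a separate axis from 0 for each gene. The cKO points lie below both WT points for Zfp36, Btg1 and Btg2, and the genotypes overlap for Zfp36l1, Zfp36l2, Tob1 and Tob2.

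Zfp36 encodes tristetraprolin, the founding member of its family, which destabilises mRNAs of cytokines such as Tnf. It lies on chromosome 7 from 28376784 to 28379228 on the minus strand (GRCm38). WT libraries had 102 and 109 CPM and cKO libraries 78.7 and 89.8 CPM, each from at least 3025 and at most 5306 fragments. The genotypes did not overlap, and the mean fell from 106 ± 4.58 to 84.3 ± 7.87 CPM (SD, n = 2). This was a change of -20.4%, or -0.33 ± 0.101 on the log2 scale (SE, adjusted p-value by DESeq2 0.0317). With the edgeR quasi-likelihood test the adjusted p-value was 0.137, with limma voom 0.141, with DESeq2 and no independent filtering 0.0576, and with the replicate block 0.18. No fit without 1 library made the call. Leaving out WT replicate 1 or 2 gave -0.38 and -0.28 (adjusted p-values by DESeq2 0.158 and 0.379), and leaving out cKO replicate 1 or 2 gave -0.23 and -0.43 (0.994 and 0.164).

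The promoter of Zfp36 is shown because the gene is one of the pair that fell and is known to respond to serum. RefSeq (GRCm38.p6) gives the bases before its start as chr7:28379229-28379478, minus strand, with motif matches on either strand in capitals. The motifs were the cyclic AMP response element (TGACGTCA), the binding site of EGR factors (GCGTGGGCG), the AP-1 element (TGACTCA), the CArG element of serum response factor, the TATA box (TATAAA) and, for NF-Y, the promoter element CCAAT.
Zfp36: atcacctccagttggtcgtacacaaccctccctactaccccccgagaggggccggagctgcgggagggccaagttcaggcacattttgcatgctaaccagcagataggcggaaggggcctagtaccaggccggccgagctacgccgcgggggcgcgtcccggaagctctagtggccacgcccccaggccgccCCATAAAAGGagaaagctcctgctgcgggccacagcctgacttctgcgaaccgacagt
The only one of these matched was the CArG box, close to the start. A CArG box was found in 1.47% of 32851 RefSeq promoter windows of 250 bases and in no other of the 6 members with an entry. Zfp36l2 had no entry.

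Zfp36l1 (chromosome 12, 80107760 to 80113013, minus strand), which acts with Zfp36l2 in early lymphocytes, had 124 and 139.6 CPM in WT and 134 and 117 CPM in cKO. The genotypes overlapped, with 132 ± 11 CPM in WT and 125 ± 12 CPM in cKO (SD, n = 2). The log2 fold change was -0.08 with a 95% interval from -0.28 to 0.12 (adjusted p-value by DESeq2 0.822). It was -0.17 without WT replicate 1, 0.02 without WT replicate 2 and 0.01 without cKO replicate 2, so its sign was not settled.

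Zfp36l2 (chromosome 17, 84183928 to 84187947, minus strand), the family member with the highest CPM here, was at 156 and 197 CPM in WT and at 208 and 187 CPM in cKO. The 2 WT libraries differed from each other by 0.34 on the log2 scale, which was more than the genotypes did. The mean was 177 ± 29.6 CPM in WT and 198 ± 14.9 CPM in cKO (SD, n = 2), a log2 fold change of 0.16 with a 95% interval from -0.06 to 0.37 (adjusted p-value by DESeq2 0.573). The value rested on WT replicate 1. Without that library the log2 fold change was -0.01 (adjusted p-value by DESeq2 0.998), and without WT replicate 2 it was 0.35 and passed the criteria (adjusted p-value by DESeq2 0.04).

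Btg2, an antiproliferative gene that p53 and mitogens are both known to induce, was the most transcribed of the 7 genes. It lies on chromosome 1 from 134074865 to 134079155 on the minus strand. WT libraries had 368 and 436 CPM and cKO libraries 335 and 313 CPM, each from at least 12454 and at most 21227 fragments. The cKO libraries lay below both WT libraries, but the WT libraries differed by 0.24 on the log2 scale. The mean fell from 402 ± 48.1 to 324 ± 15.6 CPM (SD, n = 2), a change of -19.5%, or -0.31 ± 0.0917 on the log2 scale (SE, adjusted p-value by DESeq2 0.0200). The adjusted p-value was 0.175 with the edgeR quasi-likelihood test, 0.173 with limma voom and 0.179 in DESeq2 with the replicate block. Leaving out WT replicate 1 gave -0.44 (adjusted p-value by DESeq2 6.45e-04). Leaving out WT replicate 2 gave -0.18, and leaving out cKO replicate 1 or 2 gave -0.35 and -0.27, with adjusted p-values by DESeq2 of 0.471, 0.325 and 0.722.

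The bases before the start of Btg2, chr1:134079156-134079405 on the minus strand (RefSeq, GRCm38.p6), are shown with the same motifs in capitals.
Btg2: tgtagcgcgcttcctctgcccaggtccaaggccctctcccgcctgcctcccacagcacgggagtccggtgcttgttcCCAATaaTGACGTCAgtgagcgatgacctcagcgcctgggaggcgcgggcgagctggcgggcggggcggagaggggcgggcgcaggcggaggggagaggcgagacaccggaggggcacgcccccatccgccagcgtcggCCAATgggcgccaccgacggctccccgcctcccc
It held 2 CCAAT boxes and a full cyclic AMP response element. The latter was found in 1.55% of the promoter windows and in no other member with an entry, and CCAAT in 33.8% of windows. Neither promoter of the reduced pair held the TATA box letters, which 12.4% of windows and Btg1, Tob1 and Zfp36l1 held. The AP-1 site, found in 4.46% of windows, and the EGR site, found in 0.536%, had no match in the 6 members. A GC box (GGGCGG, not in capitals) was found in 32.7% of windows and in 5 of the 6 members, Zfp36 and Btg2 included, and an E-box (CACGTG, 6.02% of windows) and an ETS core (CCGGAAGT, 2.88%) in none. These matches describe letters in the window and not binding.

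Btg1 (chromosome 10, 96617001 to 96622811, plus strand), a close relative of Btg2, was counted at 353 and 348 CPM in WT and at 302 and 324 CPM in cKO. Both cKO libraries lay below both WT libraries, which were nearly equal. The mean was 351 ± 3.40 CPM in WT and 313 ± 15.6 CPM in cKO (SD, n = 2), a difference of -10.9%. The log2 fold change of -0.17 (95% interval from -0.32 to -0.02) did not pass the adjustment over all genes (unadjusted p-value 0.0292, adjusted p-value by DESeq2 0.269). It was -0.16 without WT replicate 1 and lay between -0.22 and -0.11 over the 4 fits without 1 library.

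Tob1, a TOB gene described as a negative regulator of T cell activation, was the least transcribed member and the least precisely measured, with between 682 and 1135 fragments per library. Tob1 (chromosome 11, 94211454 to 94215492, plus strand) had 19.7 and 23.3 CPM in WT and 20.3 and 17.2 CPM in cKO, so the genotypes overlapped. Its log2 fold change was -0.20 with a 95% interval from -0.53 to 0.12 (adjusted p-value by DESeq2 0.673). Tob2 (chromosome 15, 81848270 to 81858326, minus strand), its nearest relative, had 102 and 114 CPM in WT and 113 and 98.6 CPM in cKO. The genotypes overlapped there as well, with a log2 fold change of -0.04 and a 95% interval from -0.24 to 0.16 (adjusted p-value by DESeq2 0.924). Without WT replicate 1 the values were -0.33 for Tob1 and -0.13 for Tob2. For Tob2 the sign turned to 0.05 without WT replicate 2 and without cKO replicate 2.

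**Figure D3:**
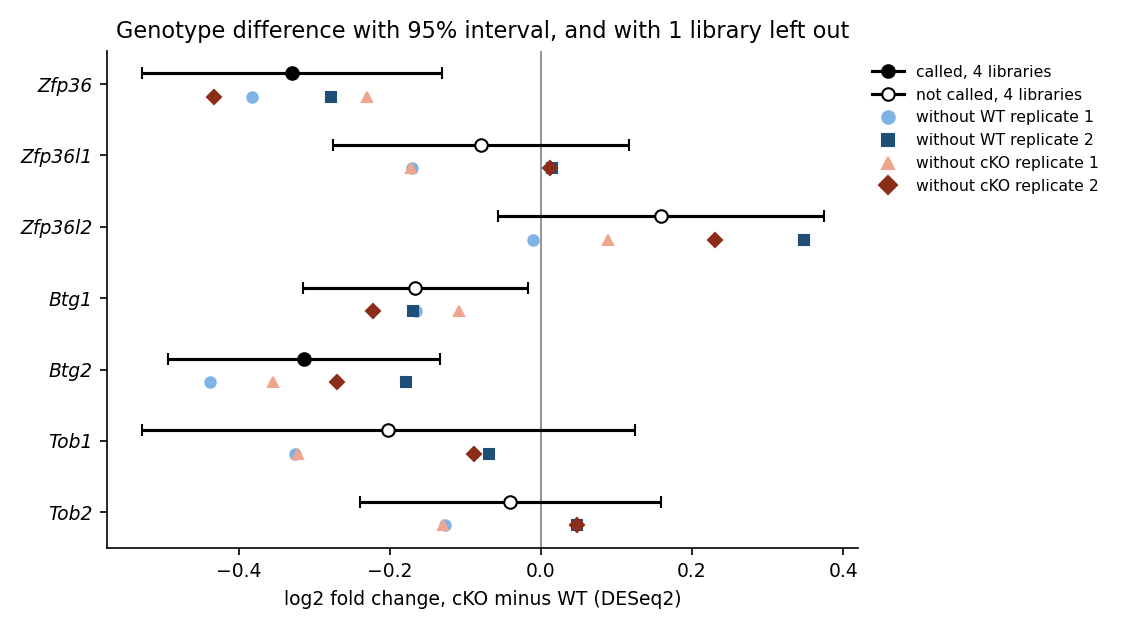
Log2 fold change of each member (cKO minus WT, DESeq2) with its 95% interval over 4 libraries (circles, filled where called), and below it the values with 1 library left out (coloured symbols). Zfp36, Btg1, Btg2 and Tob1 stay below 0 in all 5 fits, and Zfp36l1, Zfp36l2 and Tob2 change sign.

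To see whether the reduced gene of each family moved apart from its relatives, the log2 ratio of their CPM was taken within each library, where library scaling cancels. The ratio of Zfp36 to Zfp36l2 was -0.60 and -0.86 in WT, and -1.40 and -1.06 in cKO, a shift of -0.50. The ratio of Zfp36 to Zfp36l1 was -0.28 and -0.36 in WT and -0.76 and -0.38 in cKO, a shift of -0.25. The ratio of Btg2 to Tob2 was 1.85 and 1.93 in WT and 1.58 and 1.67 in cKO, a shift of -0.27. The ratio of Btg2 to Tob1 was 4.22 and 4.23 in WT and 4.04 and 4.19 in cKO, a shift of -0.11. In these 4 pairs the genotypes did not overlap, although replicate 2 of WT and of cKO lay close together for Zfp36 to Zfp36l1 and for Btg2 to Tob1. The ratio of Btg2 to Btg1 overlapped between genotypes, with 0.06 and 0.32 in WT and 0.15 and -0.05 in cKO. In a two-sided exact permutation test 4 pairs gave p = 0.333 and Btg2 to Btg1 gave p = 0.667, or 0.417 and 0.667 after adjustment over the 5 pairs. With 2 libraries a group the smallest p this test can give is 0.333, so no difference between members could pass. Zfp36 and Btg2 were taken as numerators because the same libraries had called them lower, so lower ratios were partly fixed in advance. The share of other gene pairs whose genotypes do not overlap was not computed. Of the summed CPM per kb of its family, Zfp36 made up 40.2% and 37.1% in WT against 29.4% and 34.8% in cKO, and Zfp36l2 made up 37.1% and 40.8% in WT and 47.3% and 44.1% in cKO.

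**Figure D4:**
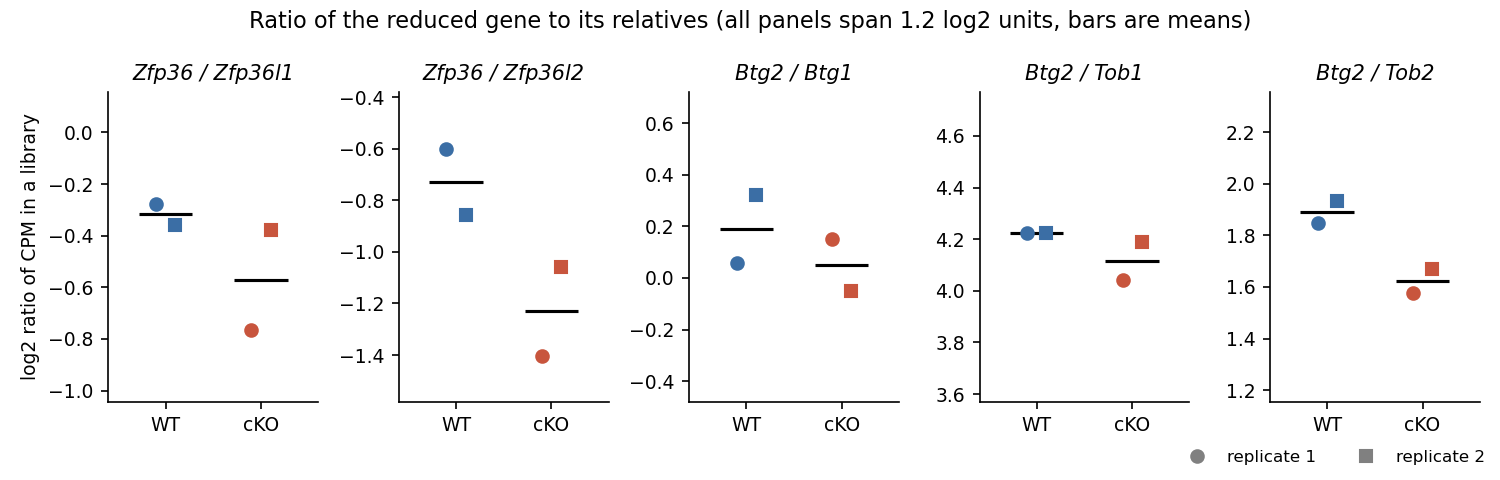
Log2 ratio of CPM within each library of Zfp36 to its 2 relatives and of Btg2 to its 3 relatives, with bars at the genotype means and circles and squares for replicates 1 and 2. The ratio of Zfp36 to Zfp36l2 differs most, by -0.50 between the means, and that of Btg2 to Btg1 overlaps between genotypes.

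Neighbouring transcription units were checked, because nascent reads can run past the end of a gene into the next. No member overlapped another gene of the table. Btg1, Btg2 and Tob1 had no neighbour within 10000 bp. Thada ends 2108 bp before the start of Zfp36l2 on the same strand, and its fragment density in WT was 4.17% of that of Zfp36l2. Med29 ends 6018 bp before Zfp36 at a density of 6.89% of it, and Phf5a ends 6189 bp before Tob2 at 44.2%. None of the 5 neighbours was called, with log2 fold changes of 0.03 for Med29, 0.05 for Plekhg2, 0.09 for Thada, 0.20 for 2310015A10Rik and -0.21 for Phf5a.

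The AU-rich heptamer that ZFP36 proteins bind, TATTTAT in DNA letters, was counted in the longest GENCODE 3′ untranslated region of each gene, since ZFP36 family mRNAs are known to be targets of the family itself. It occurred in 5 of the 7 members and in 30.6% of 10863 tested genes with such a region, or 41.5% of the 7043 whose region was at least as long as the shortest of the members, 767 bases. Zfp36 held 3 sites in 774 bases, Zfp36l1 3 in 1835 bases and Zfp36l2 3 in 1822 bases, where 10.9% of the 10863 genes held at least 2 sites. Btg2 and Tob2 held 1 site each, and Btg1 and Tob1 held 0. The first site of each ZFP36 gene and the site of Btg2 are given with the heptamer in capitals, at chr7:28376965-28376994, chr12:80108421-80108450, chr17:84184913-84184942 and chr1:134077248-134077277, all on the minus strand of GRCm38.p6.
Zfp36: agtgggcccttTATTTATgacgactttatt
Zfp36l1: ttatcaaaacgTATTTATtgccaaactatg
Zfp36l2: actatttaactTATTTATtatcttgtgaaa
Btg2: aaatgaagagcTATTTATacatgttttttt
Decay through such sites acts on finished mRNA, which TTchem-seq is not designed to measure.

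The machinery that the members recruit was compared next. None of 12 CCR4-NOT genes was called, with 9 above 0 and a median log2 fold change of 0.10. At an unadjusted p-value under 0.05 by DESeq2 there were 4, namely Cnot2, Cnot6, Cnot6l and Cnot9, all above 0, beside 13.5% of all tested genes, and edgeR called 0 after adjustment. Cnot2, a structural subunit and the most counted of the list, had 561 and 518 CPM in WT and 584 and 629 CPM in cKO (log2 fold change 0.17, adjusted p-value by DESeq2 0.274). The scaffold Cnot1 had a log2 fold change of -0.01 (adjusted p-value by DESeq2 0.985). Of 9 genes for PAN2-PAN3, PARN and poly(A) binding proteins, 1 rose, Parn, which encodes a separate poly(A) ribonuclease. Parn was at 61.5 and 62.7 CPM in WT and at 76.9 and 79.2 CPM in cKO, a log2 fold change of 0.33 ± 0.0974 (SE, adjusted p-value by DESeq2 0.0236). The edgeR adjusted p-value was 0.0929, and 0 of 4 fits without 1 library called it. The other 8 did not pass, among them Pan3 and Paip2 with log2 fold changes of 0.00 and 0.08. None of 10 genes of decapping and 5′ to 3′ decay was called, and the helicase Ddx6 and the exonuclease Xrn1, the most counted of them, had log2 fold changes of 0.00 and -0.02. Edc4 was the 1 gene of that list with an unadjusted p-value under 0.05 by DESeq2, a share of 1 in 10 beside the 13.5% of all tested genes, and edgeR called 0. Btg3, the one further paralog that was tested, had a log2 fold change of 0.04 (adjusted p-value by DESeq2 0.966).

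Among 12 other regulators of mRNA stability, 2 fell, both of the Regnase family of endonucleases, and 10 were not called. Zc3h12a, which encodes Regnase-1 and restrains T cell activation by cutting mRNAs, was at 118 and 111 CPM in WT and at 85.7 and 82.9 CPM in cKO. The genotypes did not overlap, and the log2 fold change was -0.44 ± 0.0902 (SE, adjusted p-value by DESeq2 9.78e-05, edgeR adjusted p-value 0.0389). Zc3h12d, a relative, was at 26.6 and 21.6 CPM in WT and at 17.4 and 14.1 CPM in cKO (log2 fold change -0.61, SE 0.173, adjusted p-value by DESeq2 0.0147, edgeR adjusted p-value 0.139). Of the 4 fits without 1 library, the one without WT replicate 2 called both and the others neither, with log2 fold changes from -0.48 to -0.41 for Zc3h12a and from -0.76 to -0.46 for Zc3h12d. Pum2, an RNA-binding repressor, had a log2 fold change of 0.09 and was not called. Roquin genes Rc3h1 and Rc3h2 had 0.02 and 0.04.

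Of 12 other genes known for T cell quiescence, 1 fell, Slfn2, whose loss is known to break quiescence in T cells. It was at 143 and 151 CPM in WT and at 113 and 110.3 CPM in cKO, a log2 fold change of -0.40 ± 0.0859 (SE, adjusted p-value by DESeq2 2.72e-04, edgeR adjusted p-value 0.0473). It was called without either WT library and not without either cKO library, and ranged from -0.45 to -0.35. Foxp1 and Runx1, transcription factors and the most counted of the list, had log2 fold changes of -0.03 and 0.08 and were not called. The median of the list was -0.03.

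Of 10 transcripts known as targets of the ZFP36 family, 7 were tested and 2 rose, Notch1 and Myc, beside 2.14% of all tested genes. ZFP36 proteins act on the decay of finished mRNA, which TTchem-seq is not designed to measure. Notch1, the receptor that drives early T cell development, was at 162 and 176 CPM in WT and at 231 and 237 CPM in cKO, a log2 fold change of 0.47 ± 0.0831 (SE, adjusted p-value by DESeq2 3.59e-06, edgeR adjusted p-value 0.0389). Myc was at 6.63 and 9.51 CPM in WT and at 14.8 and 13.6 CPM in cKO (log2 fold change 0.81, SE 0.223, adjusted p-value by DESeq2 0.0103, edgeR adjusted p-value 0.127). Without 1 library Notch1 ranged from 0.40 to 0.54 and lost its call without cKO replicate 2 (adjusted p-value by DESeq2 0.0615), and Myc ranged from 0.57 to 1.11 and kept its call only without WT replicate 2. Ccnd3, the most counted of the list and the cyclin of proliferating thymocytes, had a log2 fold change of -0.01, and E2f2 had 0.45 (SE 0.368, adjusted p-value by DESeq2 0.676) with WT libraries at 122 and 204.5 CPM and cKO libraries at 237 and 209.8 CPM. The median of the 7 was 0.45, which is the value of E2f2 itself, with 4 above 0 and 3 below. It rested on WT replicate 1, as both E2f2 and the median were 0.12 without that library. Those below were Ccnd3, the cytokine gene Tnf at -0.49 (adjusted p-value by DESeq2 0.495) with overlapping libraries, and Nfkbiz at -0.28 (unadjusted p-value 0.0224, adjusted p-value by DESeq2 0.226), whose cKO libraries both lay below WT.

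Zfp36 and Btg2 were set beside other immediate early genes. Of 16, 14 were tested, and 3 fell, Egr1, Jun and Ier5, while 11 were not called, among them Atf3 and Ier3, which DESeq2 gave no adjusted p-value and which could not have been called. The median log2 fold change was -0.39 with 12 of the 14 below 0, where 49.8% of all tested genes lay below 0, and it was -0.21 without WT replicate 2. In 8 of the 14 both cKO libraries lay below both WT libraries, beside 24.0% of all tested genes. Egr1, a zinc finger factor induced by ERK signalling, was at 19.1 and 16.9 CPM in WT and at 10.6 and 11.5 CPM in cKO (log2 fold change -0.70, SE 0.178, adjusted p-value by DESeq2 0.00406). Jun, an AP-1 subunit, was at 41.1 and 53.4 CPM in WT and at 35.2 and 28.6 CPM in cKO (log2 fold change -0.57, SE 0.152, adjusted p-value by DESeq2 0.00774). Ier5 had a log2 fold change of -0.53 ± 0.151 (SE, adjusted p-value by DESeq2 0.0168). Junb and Jund, the most counted of the list, had -0.27 and -0.40 and were not called (DESeq2 adjusted p-values 0.257 and 0.731). Fos, at 28.3 and 44.1 CPM in WT and 39.0 and 38.2 CPM in cKO, overlapped between genotypes. The edgeR adjusted p-values of Egr1, Jun and Ier5 were 0.0838, 0.16 and 0.101. Without 1 library Egr1 and Ier5 were called in 0 of 4 fits and Jun in 2, those without WT replicate 1 and without cKO replicate 1, with log2 fold changes from -0.78 to -0.62 for Egr1, from -0.57 to -0.48 for Ier5 and from -0.76 to -0.36 for Jun.

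**Figure D5:**
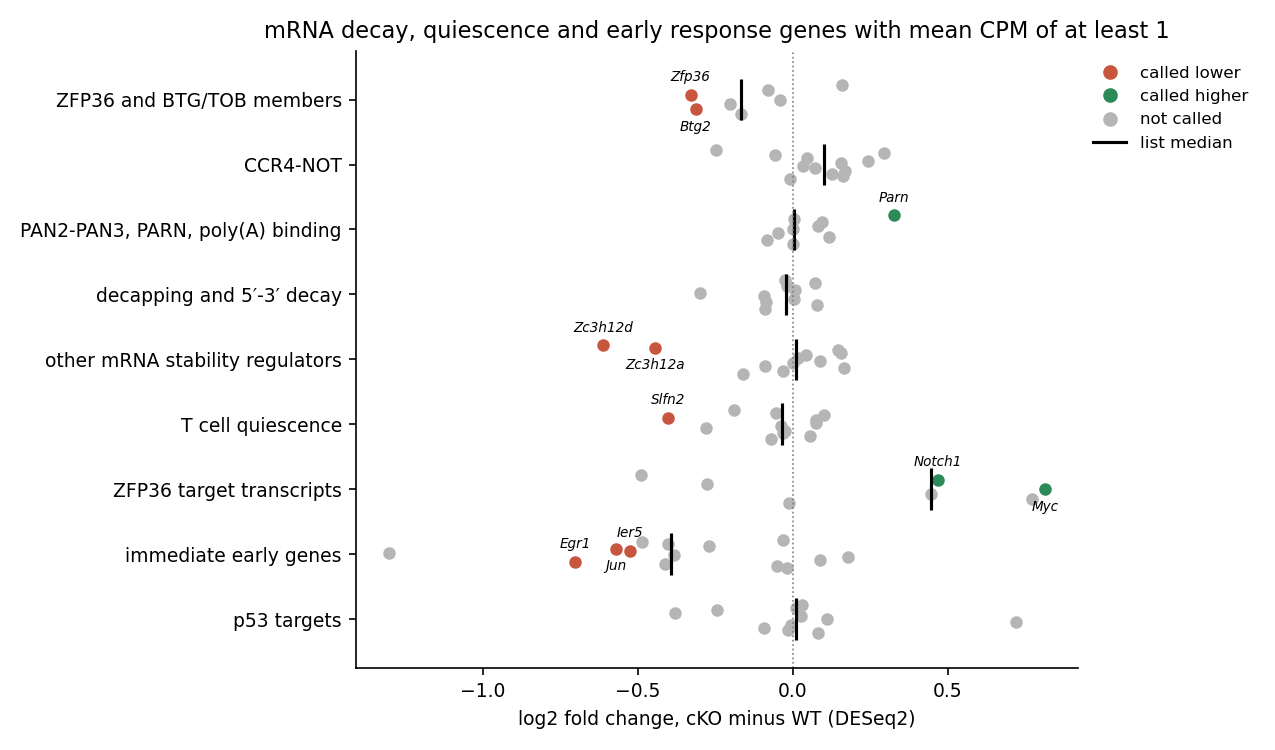
Log2 fold change (cKO minus WT, DESeq2) of the tested genes of each list, with called genes coloured and named and the list median as a bar. Zfp36 and Btg2 lie near -0.3, the immediate early genes have a median of -0.39, and the CCR4-NOT genes a median of 0.10 with none called.

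Markers of mature single positive cells did not move one way beside these genes. Ccr7 fell and Il7r rose, with log2 fold changes of -0.34 and 0.36, and 4 of the 7 were not called. The adjusted p-values by DESeq2, by edgeR and with the replicate block were 0.00714, 0.137 and 0.0581 for Ccr7, and 0.0125, 0.0925 and 0.183 for Il7r. With 1 library left out Ccr7 was called in 2 of 4 fits, not without WT replicate 1 or cKO replicate 2, and Il7r in 0. Of the DP markers Cd8a and Rag1 passed the criteria, with log2 fold changes of -0.54 and -0.31, and 8 of 10 did not. Cd8a had adjusted p-values of 1.21e-05 by DESeq2, 0.0887 by edgeR and 6.48e-04 with the replicate block, and was called in 4 of 4 fits without 1 library, with values from -0.71 to -0.35. Rag1 was just inside the threshold, at 0.0499 by DESeq2 against 0.254 by edgeR and 0.257 with the replicate block, and was called in 1 of 4 fits, that without WT replicate 1, with values from -0.49 to -0.12. The part of cell composition in the differences of Zfp36 and Btg2 was not tested.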

How the data were processed

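TTchem-seq libraries of 2 WT and 2 cKO samples were analysed, placed in groups by sample title. Per the submitters' processing notes and the study's methods, the authors used fastp 0.13.1 and STAR 2.7.9a on mm10 (GRCm38) with RefGene genes, and did not scale to the yeast spike-in. For the counting step the notes name featureCounts 1.6.1, whereas the methods for this assay take the count matrix from STAR, and which made the deposited table was not settled. The deposited values are expected counts, with 8.61% of values fractional, over genes from start to end. The protocol in the labels names oligo-dT capture, whereas the methods describe streptavidin capture of labelled RNA. Expected counts were rounded here, which changed no member by over 0.0128%. CPM used the table totals. Intervals and p-values do not account for PCR duplicates, as no molecular identifiers were described.

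All 24984 genes were fitted with DESeq2 1.42.0 (Wald test, no covariate), following the study's methods, with Benjamini-Hochberg adjustment. The 95% intervals are Wald intervals. Alternatives were edgeR 4.0.16, limma 3.58.1 voom, other size factors, filters, fold limits, the replicate block and each library left out, all in R 4.3.3. The fits were tested on simulated data. Other computations used Python 3.11.15 with numpy 2.4.6, scipy 1.17.1, pandas 2.3.3 and matplotlib 3.10.9. The members and lists were chosen with earlier results of these data known. Named genes were Tox4, the members, up to 4 called and the 2 most counted genes of each list, the 3 genes with the pattern nearest to each called member and neighbouring genes. Cnot6, Cnot6l, Cnot9, Edc4, Rc3h1, Rc3h2, E2f2, Tnf, Nfkbiz, Fos, Atf3, Ier3, Cdkn1a, Xist and the markers were named beside them after their values were seen. In each list the most counted genes are those with the highest mean CPM. Some genes that these rules would name are not reported here.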

Additional observations from a re-analysis of the deposited data

How the results depend on the processing

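Against 249 genes called higher and 182 lower, edgeR called 59 and 17, limma voom 57 and 16, DESeq2 with the replicate block 121 and 72 and DESeq2 at a fold limit of 1.5 called 106 and 44, fewer since that limit is stricter. Over the 4 fits without 1 library the counts ranged from 61 to 320 higher and from 28 to 126 lower, where the lone library of a group was assumed to vary like the others. All 59 and 17 genes of edgeR were among the 431. Of the 2 members called lower, edgeR, limma voom, the replicate block and the fold limit of 1.5 called 0 and no independent filtering called 1, Btg2. In edgeR, Zfp36 and Btg2 had unadjusted p-values of 0.00441 and 0.00866. TMM factors, total count factors, 1 CPM or more in every library and no fold limit kept both. The log2 fold change of Zfp36 was -0.33 with edgeR (adjusted p-value 0.137), -0.34 with limma voom (0.141), -0.33 without independent filtering (0.0576) and -0.33 with the replicate block (0.18). That of Btg2 was -0.32 with edgeR (0.175), -0.31 with limma voom (0.173) and -0.31 with the replicate block (0.179). The cause was not tested. Pairing by replicate number was not seen. Over 11625 genes, deviations from the group mean of libraries of one number had a correlation of -0.03. With 2 libraries a group this cannot exclude pairing, and the crossed pairing was not run.

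With 1 library left out, between 0 and 1 member was called lower (Btg2, without WT replicate 1) and between 0 and 1 higher (Zfp36l2, without WT replicate 2). The log2 fold changes ranged from -0.43 to -0.23 for Zfp36, from -0.44 to -0.18 for Btg2, from -0.22 to -0.11 for Btg1, from -0.33 to -0.069 for Tob1, from -0.17 to 0.015 for Zfp36l1, from -0.010 to 0.35 for Zfp36l2 and from -0.13 to 0.048 for Tob2. For the 9 called genes of the other lists and for the named markers, E2f2 and the list medians, alternatives were chosen after the data were seen. The direction of the 9 was the same in every fit run. The 3 called by edgeR were Notch1, Slfn2 and Zc3h12a, which the replicate block also called. Without 1 library, 3 (WT replicate 1), 5 (WT replicate 2), 2 (cKO replicate 1) or 0 (cKO replicate 2) were called.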

Other observations

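Because Btg2 is a known p53 target, 12 other p53 target genes were examined. Of 11 with a mean CPM of at least 1, none was called by DESeq2 or edgeR, 0 had an unadjusted p-value under 0.05 by DESeq2 beside 13.5% of all tested genes, and the median log2 fold change was 0.01. Trp53inp1 and Mdm2, the most counted of them, had log2 fold changes of 0.01 and 0.03 (DESeq2 adjusted p-values 0.98 and 0.956). Cdkn1a had 0.72 with a DESeq2 adjusted p-value of 0.46.

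After 0.5 was added to each CPM, log2 values were centred over the 4 libraries. The 3 genes that then lay nearest to Btg2 were Fam131a, Abhd17a and Syt14, at distances of 0.0331, 0.0365 and 0.0430. Those nearest to Zfp36 were Ccdc13, I830077J02Rik and Snord88a, at distances of 0.0304, 0.0412 and 0.0434, all at under 2 CPM. The added 0.5 shrinks differences at such low levels. The log2 fold changes by DESeq2 of these 3 genes were -0.45, -0.43 and -0.54, beside -0.33 for Zfp36. That of Fam131a, also low in CPM, was -0.40, beside -0.31 for Btg2. Abhd17a and Syt14 were not called (adjusted p-values by DESeq2 0.237 and 0.472), and the other 4 had no adjusted p-value after independent filtering, so they could not have been called.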
